A study of Mus musculus with 7 samples.

Results

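CD11b+ enriched cells of the naive spleen were set against CD11b+ enriched cells of naive blood, as a comparison of monocyte-rich cells held in the spleen with those in circulation at steady state. Members were all cells with gene counts whose library in the authors' metadata was naive spleen (416 cells) or naive blood (814 cells), together 1230 of the 4290 counted cells of the series. Both libraries came from C57/Bl6 mice without a tumor. Where a matched pair is set beside them, it is spleen (579 cells) and blood (354 cells) of C57/Bl6 mice bearing an LLC tumor (Lewis lung carcinoma, a transplantable mouse lung tumor) at day 14. All 4 libraries were enriched for CD11b+ cells, by magnetic separation per the series design text, and RNA and antibody tags were read in the same single cells. Each tissue and state was 1 library. The labels give neither the number or age of the animals, nor whether animals were pooled, nor which tissues came from the same animals. No difference below therefore has a replicate check, and animal, tissue handling and library cannot be told apart from tissue.

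Monocytes form in the bone marrow, circulate in blood, and are also held in large numbers in the red pulp of the spleen, from which they can be released when tissue is injured. Classical monocytes carry high Ly-6C and the chemokine receptor Ccr2, whereas non-classical monocytes carry low Ly-6C and patrol the vessel wall. The spleen also holds red pulp macrophages, which clear old red cells, and many lymphocytes and neutrophils.

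The spleen library held 4422486 unique molecular identifiers (UMIs, counted RNA molecules) and the blood library 9776945. Median UMIs per cell were 10658 in spleen and 11733 in blood, the median mitochondrial share was 3.04% and 2.85%, and the libraries shared 0 cell barcodes. Levels are UMIs per 1000000 UMIs of a library (CPM). Genes entered the comparison (measured genes) when both libraries together held 30 UMIs or more and either library reached 20 CPM. A gene was counted as higher or lower in spleen at 2-fold or more. Ranges in parentheses are exact 95% intervals that cover counting error only.

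Monocyte markers were prominent in both libraries. All 6 classical and all 6 non-classical monocyte markers were among the measured genes. Ly6c2, which encodes Ly-6C, stood at 1210 CPM in spleen and 1366 in blood, and Ccr2 at 836 and 1015. Summed T cell markers came to 3.39 CPM in spleen and 0.614 in blood, NK cell markers to 4.30 and 4.81, and platelet markers to 1.36 and 9.92, with no member of these lists measured. In the authors' clustering, clusters 0, 1, 2, 4 and 6 held 392 of 416 spleen cells (94.2%, 91.5 to 96.3) and 765 of 814 blood cells (94.0%, 92.1 to 95.5). The remaining cells lay mainly in cluster 12, with 16 spleen cells (3.85%) and 11 blood cells (1.35%), and in cluster 16, with 8 (1.92%) and 35 (4.30%). Clusters are given by number.

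At 2-fold, spleen and blood differed in few genes. Of 5367 measured genes, 8 were higher in spleen (0.149%) and 7 were lower (0.13%), together 15 (0.279%). Most genes lay close together, with 97.8% of them within 1.5-fold and a median log2 ratio of 0.01 (spleen over blood, with 1 CPM added to each level). By that ratio, 2799 of the 5367 genes lay above blood and 2568 below. The genes higher in spleen were Lrg1, Wfdc21, Ifitm1, Lcn2, Hspa1b, S100a9, Tnfaip3 and Bmf. The genes lower in spleen were Ifit1bl1, Cxcl10, Ifit2, Ifit3b, Idi1, Oasl1 and Thbs1. Without the single cell that held the most UMIs of a gene in each library, 5 of the 8 and 5 of the 7 kept their call. Lrg1 and Wfdc21 were then still 3.04-fold and 2.71-fold higher, and Ifit3b and Oasl1 2.33-fold and 2.15-fold lower, but under the 20 CPM minimum, whereas Ifitm1 was at 1.77-fold.

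**Figure D1:**
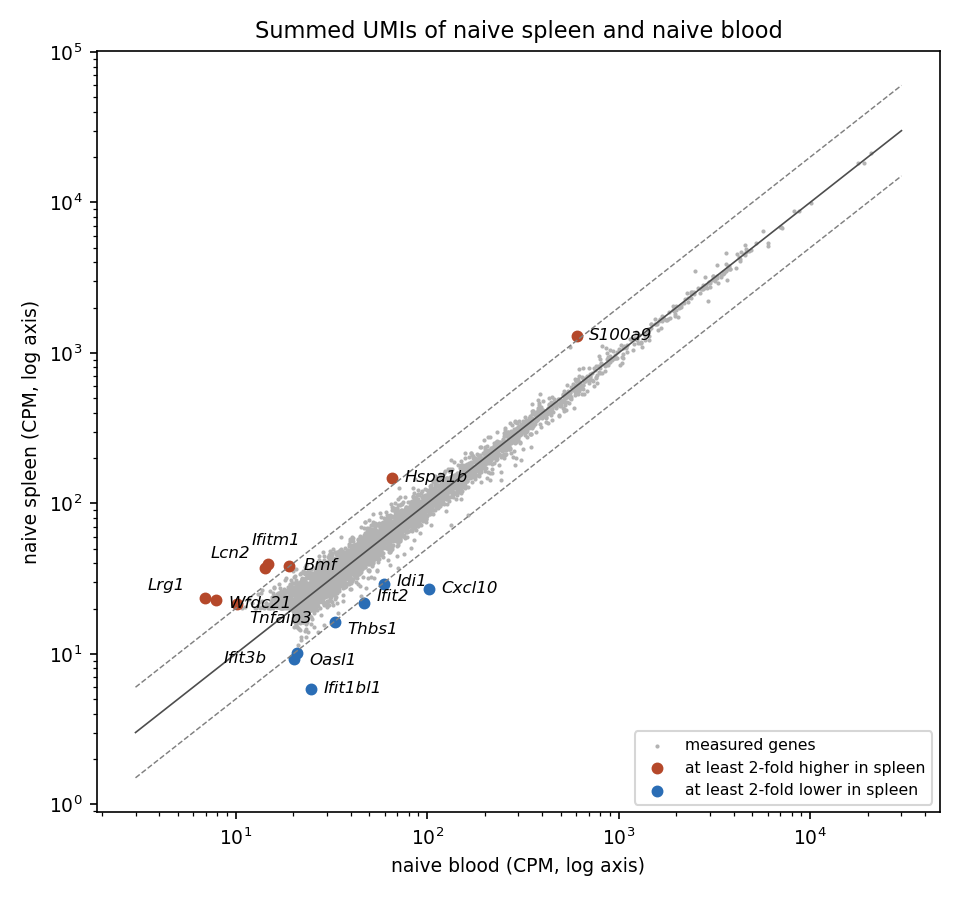
Level of each measured gene in naive blood (x axis, CPM) and naive spleen (y axis, CPM), both on log axes. The solid line marks equal levels and the dashed lines 2-fold. The 8 red and 7 blue named points lie outside the dashed lines, and all but S100a9, Hspa1b and Cxcl10 stand under 100 CPM in both libraries.

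Interferon-stimulated genes made up most of the genes at least 2-fold lower in spleen. They are switched on by type I interferon, through a factor complex that binds a short DNA element in their promoters, and many of their products block virus replication. Cxcl10, an interferon-induced chemokine that attracts activated T cells, was at 26.9 CPM in spleen and 102 CPM in blood, 3.79-fold lower in spleen (3.13 to 4.62). Ifit1bl1, of the interferon-induced Ifit family, was at 5.88 and 24.8 CPM, 4.21-fold lower (2.80 to 6.58). Its relatives Ifit2 (21.7 and 46.6 CPM) and Ifit3b (9.27 and 20.3 CPM) were 2.15-fold and 2.18-fold lower. Oasl1, an oligoadenylate synthetase-like gene, was at 10.2 and 21.0 CPM, 2.06-fold lower. In a list of 24 interferon-response genes, the 22 that were measured all stood below blood, as did 2568 of all 5367 measured genes. Their median log2 ratio was -0.49, against 0.01 over all measured genes. Ifi44 was too low to be measured (12 UMIs in spleen and 58 in blood), and Ifi209 was not found by name. Of the 22, 3 were past 2-fold lower and 9 past 1.5-fold, against 0.13% and 0.801% of all measured genes. Among the 9 were Ifit1 (37.1 and 70.9 CPM), Rsad2, which encodes viperin (45.9 and 75.6 CPM), and Isg15, a ubiquitin-like modifier (180 and 286 CPM). A list of genes induced by interferon-gamma centred near 0. Among its 10 measured members 5 stood above blood, the median log2 ratio was -0.05 and Cxcl10 alone passed 2-fold.

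Promoters of the Cxcl10, Ifit3b and Ifit1bl1 genes are shown because these were the called genes that held the interferon-stimulated response element, searched as GAAANNGAAA on both strands. The stretches come from RefSeq (build GRCm38.p6), end just before an annotated start of transcription (for Ifit1bl1, the second of its starts in the table), run in the direction of transcription, and carry the match in capitals, which appears as TTTCNNTTTC where it lies on the other strand.
Cxcl10, chr5:92348890-92349112, minus strand: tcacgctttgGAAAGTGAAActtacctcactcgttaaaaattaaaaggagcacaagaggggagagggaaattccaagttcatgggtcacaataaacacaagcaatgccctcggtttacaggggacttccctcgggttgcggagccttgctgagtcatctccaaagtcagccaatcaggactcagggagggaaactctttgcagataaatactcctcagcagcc
Ifit3b, chr19:34607759-34607956, plus strand: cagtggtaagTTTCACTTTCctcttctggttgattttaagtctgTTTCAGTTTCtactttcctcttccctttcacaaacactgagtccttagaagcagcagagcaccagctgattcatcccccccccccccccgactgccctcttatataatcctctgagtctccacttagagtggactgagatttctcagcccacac
Ifit1bl1, chr19:34601969-34602088, minus strand: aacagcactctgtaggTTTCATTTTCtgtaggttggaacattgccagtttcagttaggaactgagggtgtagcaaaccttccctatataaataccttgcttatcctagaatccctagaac
Within 250 bases upstream of the start, the element was found in 2.98% of 32851 RefSeq promoters and, counting any start of a gene, for 3.46% of 27025 genes. By gene, it was found for 3 of the 6 lower genes and 0 of the 7 higher genes with a RefSeq promoter entry, and for 9 of 16 matched members of the interferon-response list. Isg15 held 3 overlapping matches. A match is a description of the letters, not of binding.

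The difference in interferon-stimulated genes lay largely in the cells of cluster 16. That cluster held 35 of 814 blood cells and 8 of 416 spleen cells. It carried 80.0% of the Cxcl10 UMIs of blood and 46.2% of those of spleen, and 80.2% and 42.3% for Ifit1bl1. Levels inside the cluster were 646 CPM in spleen and 1846 in blood for Cxcl10, and 1515 and 1721 for Ifit3. Without cluster 16, Cxcl10 stood at 14.8 and 21.3 CPM, 1.44 times higher in blood, and Ifit2 at 13.4 and 16.9 CPM, 1.26 times higher in blood. The 22 genes then had a median log2 ratio of -0.20, with 21 of 22 below blood, and the number of genes at least 2-fold lower in spleen went from 7 to 1. Cluster 2 held most of the Cxcl10 UMIs outside cluster 16 (57 in spleen and 186 in blood), at 74.0 and 115 CPM. Cluster 16 was formed from the RNA of these same cells and holds 8 spleen cells, so its values are a description.

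Immediate early genes stood below blood. These genes, which include the AP-1 subunits, are transcribed within minutes of a stimulus without new protein synthesis. Of a list of 20, 14 were measured. None of the 14 passed 2-fold, but all 14 lay below blood, with a median log2 ratio of -0.34, and 5 of the 14 passed 1.5-fold (35.7%, against 0.801% of all measured genes). Fos, an AP-1 subunit, was at 143 CPM in spleen and 243 in blood, 1.70-fold lower (1.56 to 1.86). Atf3, a stress-induced transcription factor, was at 38.7 and 64.3 CPM, and Dusp1, a phosphatase of MAP kinases, at 50.4 and 82.8. Ier2 was at 195 and 309.9 CPM, and Zfp36, which promotes decay of cytokine messages, at 162 and 244. Egr1, a zinc-finger factor of the same class, had 8 UMIs in spleen and 186 in blood (1.81 and 19.0 CPM, 10.5-fold lower, 5.23 to 24.7), just under the 20 CPM minimum. Within clusters 0, 1, 2, 4 and 6, the number of the 14 that lay below blood was 8, 13, 13, 13 and 14. Fos kept its direction in each, from 228 and 365 CPM in cluster 0 to 49.1 and 91.7 in cluster 4.

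Over all cells, heat-shock genes other than Hspa1b lay slightly below blood, but not in cluster 0. Their products are chaperones that help fold proteins, and the inducible forms are made under heat or stress. Of 11 measured members 10 stood below blood, with a median log2 ratio of -0.24, from Dnaja1 (383 CPM in spleen and 490 in blood) and Hspa5, the chaperone of the endoplasmic reticulum (416 and 531), to Hspe1 (291 and 299). By cluster, 3, 9, 9, 10 and 9 of the 11 lay below blood in clusters 0, 1, 2, 4 and 6, and the median in cluster 0 was 0.15. Hspa1b, an inducible Hsp70 gene, went the other way, at 147 CPM in spleen and 65.5 in blood, 2.25-fold higher (2.01 to 2.51). Its neighbour Hspa1a, which encodes nearly the same protein, stood at 71.0 and 89.9 CPM, 0.79 times the level of blood (0.69 to 0.90). Hspa1b was above blood in all 5 clusters, at 99.9 and 15.5 CPM in cluster 0, 152 and 47.3 in cluster 1, 145 and 74.4 in cluster 2, 215 and 154 in cluster 4, and 128 and 51.8 in cluster 6. Hspa1a, by contrast, was 2.08-fold higher in cluster 0 (54.8 and 26.3 CPM) and 2.16-fold lower in cluster 4 (79.4 and 171). The UMIs of Hspa1b were spread, with at most 16 in 1 spleen cell and 19 in 1 blood cell. Hspa1b lies on the minus strand at chr17:34956436-34959238 and Hspa1a at chr17:34969190-34972156 (GRCm38). Over whole transcripts 63.8% of the 31-base words of Hspa1a also occur in Hspa1b. Between the last 400 bases of Hspa1a and the last 400 of Hspa1b, the end read by 3' libraries, none was shared. Whether words of the Hspa1a end occur elsewhere in Hspa1b was not checked. How reads shared by both copies were counted is not given in the sources used here. Their promoters were near copies, with 3 of 250 bases different, and the heat shock element searched as GAANNTTCNNGAA, found in 0.466% of RefSeq promoters, was not in either window.

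Among the 8 genes higher in spleen, S100a9, Lcn2, Lrg1 and Wfdc21 are abundant in neutrophils. S100a9, a subunit of calprotectin, was at 1290 CPM in spleen and 604 in blood, 2.14-fold higher (2.06 to 2.22). Its partner S100a8 was at 1098 and 561 CPM, 1.96-fold. Lcn2, a lipocalin that withholds bacterial iron carriers, was at 37.1 and 14.2 CPM, 2.61-fold higher (2.07 to 3.29). Lrg1, a secreted leucine-rich glycoprotein, was at 23.5 and 6.96 CPM, the largest ratio of the measured genes at 3.38-fold (2.47 to 4.66). Wfdc21, a small secreted protein, was at 22.8 and 7.88 CPM, 2.90-fold higher. Of 5 measured neutrophil markers, 4 passed 1.5-fold (Cxcr2 and Retnlg beside S100a8 and S100a9), against 1.36% of all measured genes. The 9 markers summed to 2653 CPM in spleen and 1338 in blood. UMIs of S100a9, Lcn2, Lrg1 and Wfdc21 sat largely in few cells. In spleen, the 10 cells with the most UMIs of a gene held 94 of 104 for Lrg1 and 88 of 101 for Wfdc21. For Lcn2 they held 129 of 164, and for S100a9 4370 of 5707. In blood, the top 10 cells held 44 of 68, 63 of 77, 108 of 139 and 3637 of 5908 in the same order.

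Cluster 12 moved with these genes, and its part in the differences was not tested beyond leaving it out. It held 16 spleen and 11 blood cells, which carried 44.5% of the S100a9 UMIs of spleen and 16.5% of those of blood, for Lcn2 36.0% and 10.8%, and for Retnlg 63.9% and 23.1%. Without it the neutrophil markers summed to 1551 and 1123 CPM, Retnlg turned to 54.1 and 67.5 CPM (0.80 times blood), S100a9 stood at 736 and 509.5 CPM (1.44-fold) and Lcn2 at 24.4 and 12.8 (1.90-fold), whereas Lrg1 stood at 18.6 and 6.20 (3.0-fold). The number of genes at least 2-fold higher went from 8 to 5, and the 5 were not all among the 8. Lrg1 and Wfdc21 (18.6 and 7.02 CPM, 2.65-fold) left the count only for falling under the 20 CPM minimum. Outside cluster 12, S100a9 was 2.78-fold higher in cluster 1 and 3.17-fold in cluster 4, but at 909 and 1111 CPM in cluster 2. Ifitm1, an interferon-induced membrane protein, was at 39.8 and 14.8 CPM, 2.68-fold higher, but 72 of its 176 spleen UMIs came from 1 cell, and without the top cell of each library the ratio was 1.77. Camp and Ngp, granule genes of neutrophil precursors, had 32 UMIs each in spleen and 1 and 2 in blood. These lay mostly outside cluster 12, which held 2 and 1 of the spleen UMIs. Without it Camp stood at 6.97 CPM in spleen and 0.10 in blood, and Ngp at 7.20 and 0.21.

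Tnfaip3, Bmf and Cxcr4 were higher in spleen with their UMIs spread over cells. Tnfaip3 encodes A20, which limits NF-kB signalling. It was at 21.5 CPM in spleen and 10.1 in blood, 2.12-fold higher (1.58 to 2.84). Tnfaip3 passed 2-fold in clusters 2 (4.82-fold, 2.21 to 11.3) and 4 (3.96-fold, 1.84 to 8.89), on 23 and 20 spleen UMIs. In clusters 0, 1 and 6 it was 1.48, 1.17 and 2.40 times blood, too low there to be measured. Bmf, a pro-apoptotic member of the Bcl2 family, was at 38.4 and 18.9 CPM, 2.03-fold higher (1.64 to 2.52), and past 2-fold in clusters 1, 2 and 4. Cxcr4, the receptor for Cxcl12 that holds leukocytes in marrow and spleen, was at 127 and 71.5 CPM, 1.77-fold higher (1.58 to 1.99), with the same direction in all 5 clusters and 2.2-fold in cluster 2. The survival gene Bcl2, by contrast, was at 14.0 and 26.9 CPM. Among 14 measured members of a list of NF-kB feedback and cytokine genes 10 lay above blood, with a median log2 ratio of 0.14. Of all 5367 measured genes, 2799 lay above blood. Icam1, an adhesion molecule, was at 68.5 and 49.6 CPM, but Il1b stood at 104 and 130. Receptors and transcription factors tied to the splenic niche leaned the same way, 12 of 15 above blood with a median log2 ratio of 0.19 and none past 2-fold. The largest change went against this lean, with 0 members past 1.5-fold higher and 1 past 1.5-fold lower. At 2-fold, 1 member was lower and 0 higher in each of clusters 1, 2, 4 and 6 and in the tumor-bearing pair. Csf3r, the G-CSF receptor, was at 194 and 133 CPM (1.45-fold), Tgfbr1 at 84.3 and 62.1, and Notch2 at 160 and 122. Spic, the factor of red pulp macrophages, had 39 UMIs in spleen and 35 in blood (8.82 and 3.58 CPM). Among chemokine receptors, Ccr2 stood 1.21 times higher in blood (1.17 to 1.26), below blood in all 5 clusters. Fn1, the gene for fibronectin, stood at 1103 CPM in spleen and 823 in blood.

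Idi1, an isomerase of the sterol synthesis pathway, was at 28.9 CPM in spleen and 59.8 in blood, 2.07-fold lower (1.70 to 2.52), and past 2-fold in clusters 1 and 4. In the same pathway, with no call at 2-fold, Sqle, the squalene epoxidase, was at 11.5 and 21.3 CPM, Cyp51, picked after its value was seen, at 32.1 and 53.1, and Hmgcs1 at 41.8 and 62.5. Of 15 measured genes of a lipid-handling list, which holds Sqle and Hmgcs1 but not Idi1 or Cyp51, 12 lay below blood with a median log2 ratio of -0.20 and 0 past 2-fold, and 7 of the 15 lay below blood in the tumor-bearing pair. All 9 measured genes of iron and heme handling lay below blood too, by small amounts (median log2 ratio -0.23), with Hmox1, the heme oxygenase, at 113 and 143 CPM. Nuclear-encoded respiratory chain genes, with 10 of 20 above blood and a median of 0.00, were balanced. Thbs1, thrombospondin, was at 16.3 and 32.9 CPM, 2.02-fold lower (1.56 to 2.65).

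**Figure D2:**
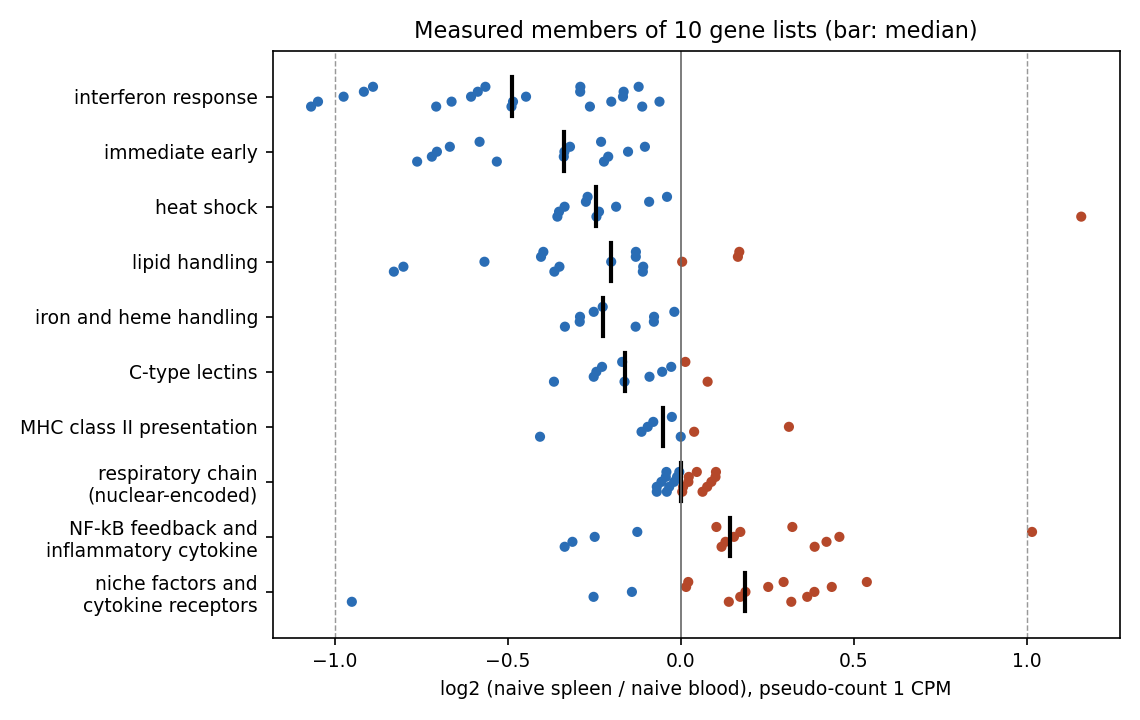
Log2 ratio of naive spleen over naive blood for each measured member of 10 gene lists (points, red above and blue below 0), with the list's median as a black bar and 2-fold as dashed lines. All 22 interferon-response and all 14 immediate early genes lie left of 0, Hspa1b lies alone to the right among heat-shock genes, and the respiratory chain centres on 0.

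Within single clusters the counts past 2-fold were larger and rested on fewer UMIs. Of 5395 to 5560 genes measured per cluster, higher and lower genes numbered 44 (0.816%) and 14 (0.259%) in cluster 0, 39 (0.716%) and 35 (0.643%) in cluster 1, and 96 (1.77%) and 43 (0.793%) in cluster 2. They numbered 85 (1.53%) and 85 (1.53%) in cluster 4, and 122 (2.22%) and 94 (1.71%) in cluster 6, the cluster with the fewest spleen UMIs. Both directions together made up 1.08%, 1.36%, 2.56%, 3.06% and 3.92% of the genes in clusters 0, 1, 2, 4 and 6. Genes past 2-fold in the same direction in at least 3 clusters included Bmf and Hspa1b, described above, the transcription factor gene Etv3, the centrosome gene Cep120, and the immunoglobulin gene Igkc. Etv3 was 2.09-fold, 2.66-fold and 2.25-fold higher in clusters 2, 4 and 6, and Cep120 2.01-fold, 2.46-fold and 2.38-fold in clusters 0, 2 and 4. All clusters come from the same pair of libraries and are not replicates.

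**Figure D3:**
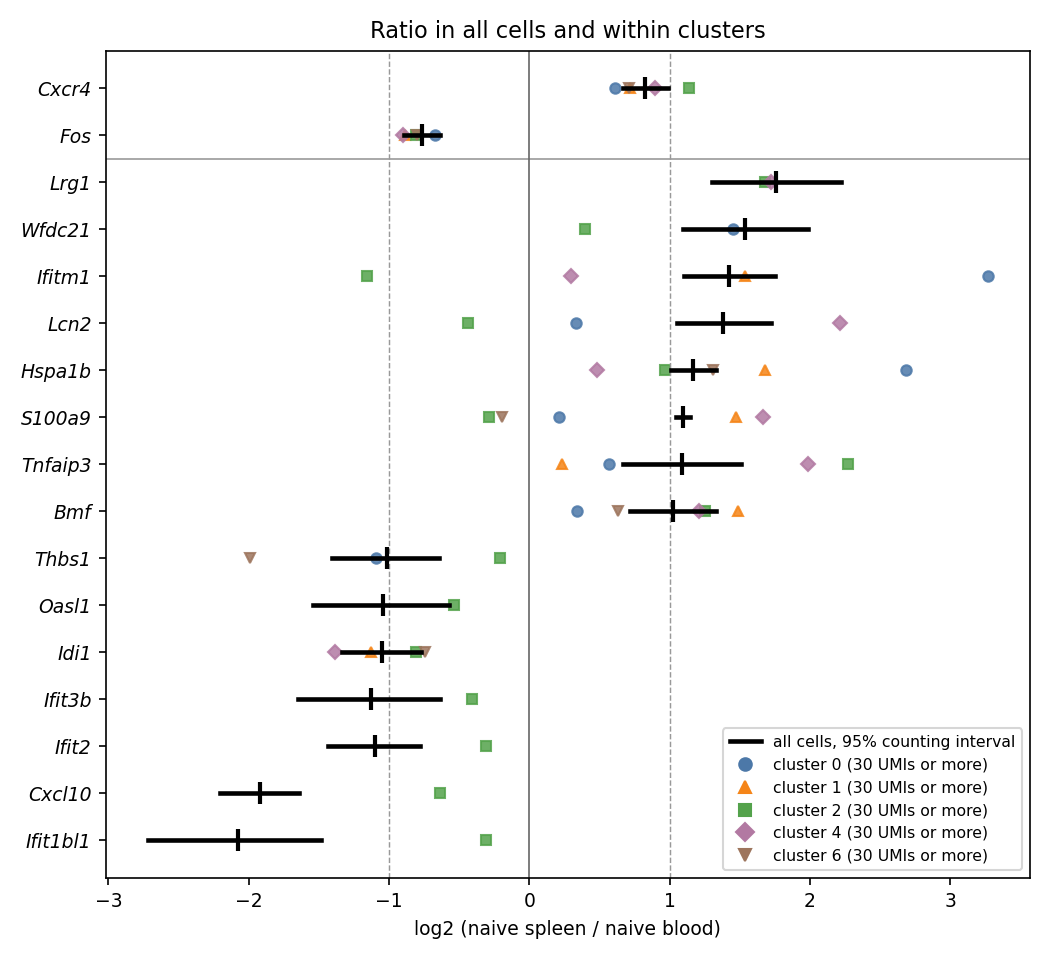
Log2 ratio of naive spleen over naive blood for the 15 genes past 2-fold and for Fos and Cxcr4, in all cells (black, with the 95% counting interval) and within clusters with at least 30 UMIs of the gene (colours). Hspa1b, Bmf, Fos and Cxcr4 keep 1 direction in all plotted clusters, whereas S100a9, Lcn2 and Ifitm1 cross 0.

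At 1.5-fold, 73 genes were higher (1.36%) and 43 lower (0.801%), and these smaller differences ran through the clusters. Of the 73 higher genes 59 lay above blood in all 5 clusters, against 11% of all measured genes. Of the 43 lower genes 24 lay below blood in all 5, against 7.83%. Cells of the clusters are part of the total that chose these genes, so the shares are a description. The 73 were mostly low, with a median of 31 CPM in spleen. Among them were Ogt, the enzyme that adds sugar to nuclear proteins (85.5 and 51.9 CPM), Mxd1, a partner that opposes Myc (26.7 and 13.8), Trp53inp1, a p53-induced gene (24.9 and 13.1), and Sod1, a superoxide dismutase (69.6 and 45.4).

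CD11b and CD115 antibody counts were lower in spleen, whereas the RNA of their genes was not. CD11b antibody, against the integrin chain used for the enrichment, made up 7.62% of all antibody counts in spleen and 19.9% in blood, a share 2.61-fold lower (2.59 to 2.63). It was the 1 of 47 antibodies past 2-fold (2.13%). The median cell held 152.5 CD11b counts in spleen, with quartiles 107 and 221, and 434 in blood, with quartiles 321 and 587.5, so the middle ranges did not overlap. It was lower in all 5 clusters, by 2.25-fold in cluster 0 to 2.96-fold in cluster 1. Itgam, the gene for CD11b, was at 292 CPM in spleen and 257 in blood, 1.13 times the level of blood (1.06 to 1.21). CD115, the receptor for CSF-1 that supports monocyte survival, followed with 4.82% and 9.06% of counts, 1.88-fold lower (1.86 to 1.90), and medians of 86 and 202.5 counts per cell. Its gene Csf1r was at 793 and 697 CPM, 1.14 times the level of blood. Trem2 was 1.12-fold lower.

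The other 44 antibodies had shares above blood, by at most 1.45-fold, and a median ratio over all 47 of 1.18. Shares are relative to one another. Scaled to that median ratio instead, CD11b was 3.08-fold and CD115 2.21-fold lower, and Ly-6C 1.13 times and Sca-1 1.23 times the level of blood. Median antibody counts per cell were close, at 2302 in spleen and 2350.5 in blood. Ly-6C antibody made up 37.4% and 28.1% of counts with Ly6c2 RNA at 0.89 times blood, and Sca-1 antibody was 1.45-fold higher with Ly6a RNA at 0.80 times blood. CD184, which is Cxcr4, was 1.22 times blood by antibody, near the median ratio of 1.18, with means of 10.3 and 8.81 counts per cell. Cxcr4 RNA was 1.77 times blood. CD45, common to leukocytes, had medians of 15.5 and 14 counts per cell. Ly-6G, the neutrophil antigen, had medians of 12 and 12.

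**Figure D4:**
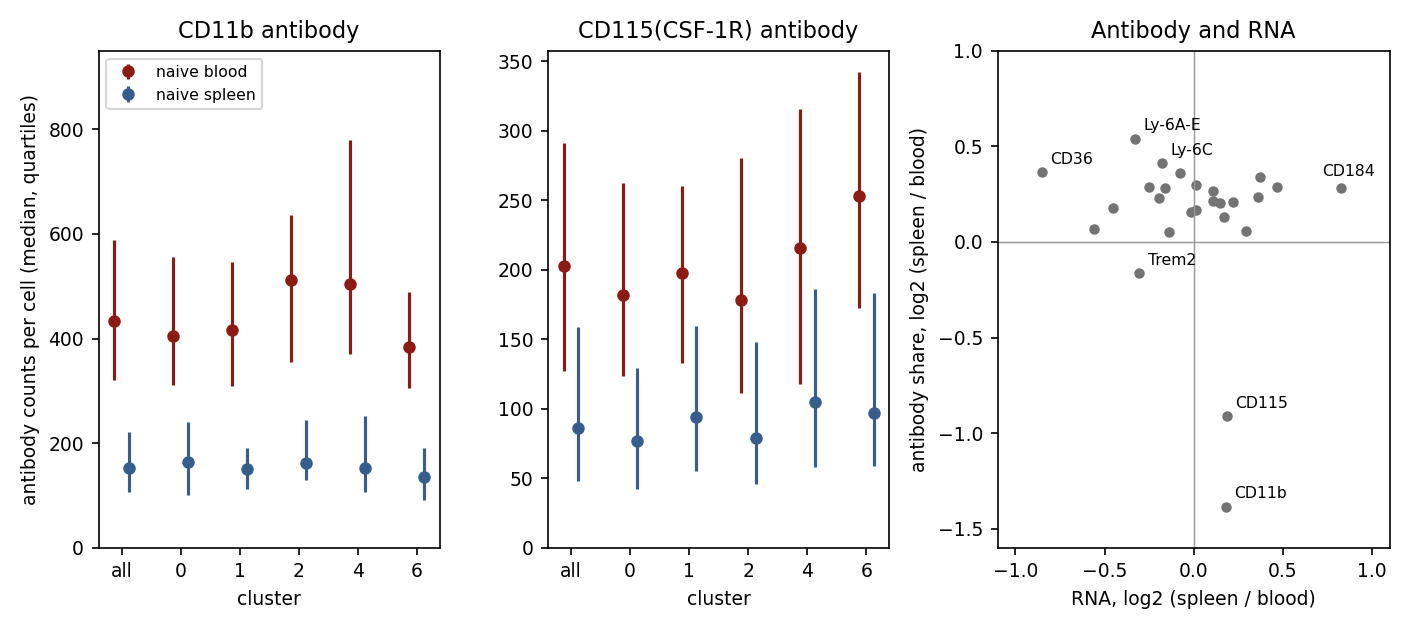
Left and middle, CD11b and CD115 antibody counts per cell (median with quartiles) in naive blood and naive spleen, over all cells and in clusters 0, 1, 2, 4 and 6. Right, log2 ratio of antibody share against log2 ratio of RNA for the 26 antibodies whose gene was measured. Spleen medians lie below blood in every cluster, and CD11b and CD115 lie far below 0 for the antibody and slightly above 0 for RNA.

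The tumor-bearing pair shares no library with the naive pair and gave part of the pattern again. It had 12 genes higher in spleen (0.221%) and 10 lower (0.184%) of 5421 measured, together 22 (0.406%). All 7 genes lower in naive spleen also had a ratio below 1 there (47.0% of all measured genes did). Cxcl10 (31.6 and 115 CPM) was again past 2-fold. The counting intervals of Ifit2, Oasl1, Ifit3b and Ifit1bl1 in this pair included 1, and all of these but Ifit2 were too low to be measured. Of the 8 higher genes 5 had a ratio above 1, near the 53.0% of all measured genes. Wfdc21 was among the 5 at only 1.04 (0.89 to 1.20), and Tnfaip3 was again past 2-fold (2.45-fold). Hspa1b was 1.82-fold and Cxcr4 1.76-fold higher. All 14 immediate early genes lay below blood again, with a median log2 ratio of -0.77, 3 past 2-fold, and Fos 5.16-fold lower (4.60 to 5.79). The interferon-response list did not repeat as a group, with 13 of 22 below blood. Lrg1 and Lcn2 lay the other way, at 0.66 and 0.68 times blood. Of the 73 genes higher at 1.5-fold in naive spleen, 65 had a tumor-bearing ratio above 1 (53.0% of all measured genes did), and of the 43 lower genes 40 had one below 1 (47.0%). CD11b antibody was 2.36-fold lower and CD115 1.17-fold lower in tumor-bearing spleen, where median antibody counts per cell were 1649 against 6045 in tumor-bearing blood.

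**Figure D5:**
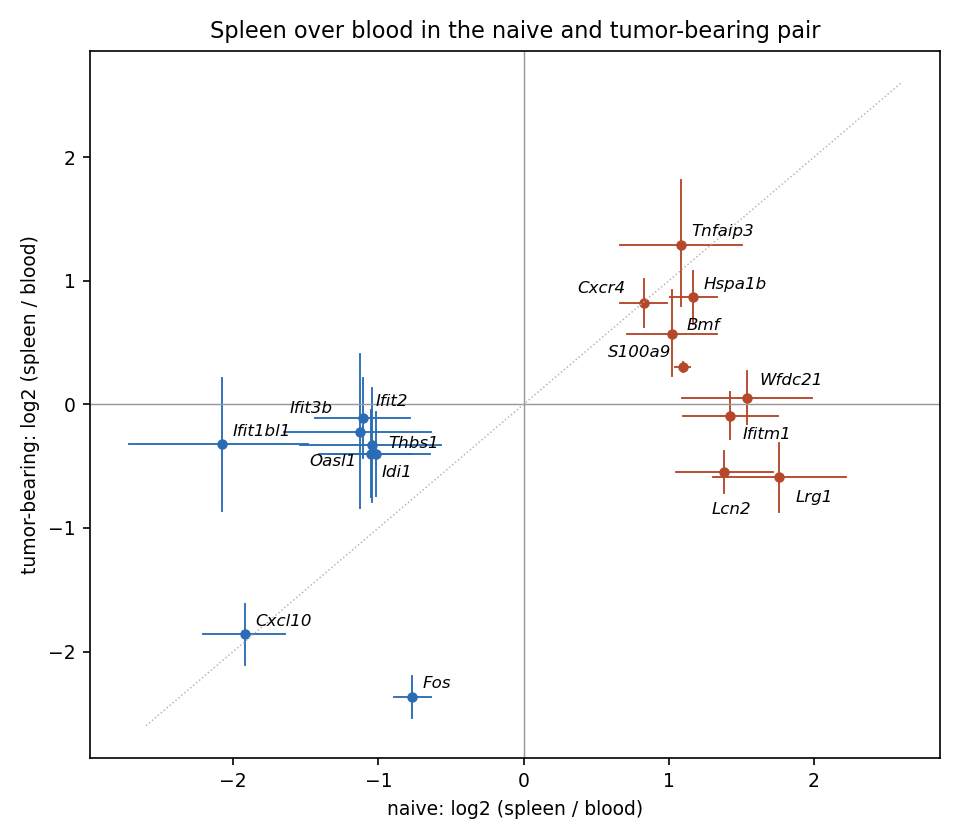
Log2 ratio of spleen over blood in naive mice (x axis) and tumor-bearing mice (y axis) for the 15 genes past 2-fold and for Fos and Cxcr4, with 95% counting intervals and a dotted line of equal ratios. Cxcl10, Tnfaip3, Hspa1b and Cxcr4 lie near the line, Fos lies far below it, and Lrg1, Lcn2 and Ifitm1 lie below 0 on the y axis.

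Transcripts typical of B cells and of macrophages went both ways between spleen and blood. Igkc, the immunoglobulin kappa chain of B cells and plasma cells, stood at 87.2, 94.6, 88.3, 89.5 and 73.2 CPM in spleen clusters 0, 1, 2, 4 and 6, a nearly even level, and no spleen cell held more than 6 UMIs. In blood it stood at 9.92, 13.8, 15.5 and 12.1 CPM in clusters 0, 1, 2 and 4, but at 364 CPM in cluster 6, where 1 cell held 226 of the 687 blood UMIs. Spleen was thus 5.70-fold to 8.79-fold higher in the first 4 of these clusters and 4.97-fold lower in cluster 6. The source of these transcripts, in the cell or free in the droplet, was not tested. The B cell genes Cd79a and Ms4a1 went the other way over all cells, with 36 and 8 UMIs in spleen and 171 and 57 in blood. Of 11 markers of red pulp and other macrophages, summed at 342 CPM in spleen and 357 in blood, Vcam1 had 22 UMIs in spleen and 0 in blood, and the iron exporter gene Slc40a1 57 and 45 UMIs (12.9 and 4.60 CPM), while the complement genes C1qa and C1qb had 9 and 20 UMIs in spleen and 62 and 141 in blood.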

How the data were processed

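RNA and antibody tags of single CD11b+ enriched cells were read in 7 libraries, of which 4 are used here. Libraries were made with 3' chemistry on a Chromium instrument, per the labels' protocols. The submitters' processing notes name Cell Ranger and mm10. Its version, the annotation and any cell filter were not given in the sources used here. Deposited by the authors were UMI counts for 25127 genes and counts for 47 antibodies in 4290 cells. Their metadata gave library, cluster and mitochondrial fraction per cell, per the file headers, and listed 24 spleen and 23 blood cells without counts, which were left out.

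UMIs were summed over cells and scaled to CPM (Python 3.11.15, scipy 1.17.1). No test was possible, each group being 1 library. Intervals were exact conditional binomial for ratios and Clopper-Pearson for shares, at 95%, and cover counting error only. The calculation was tested on simulated data. No further cell filter or doublet caller was applied; dropping the deepest 2% of cells was one of the alternatives, beside thinning, other minimums, other scalings and other sets of cells.

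Genes named were up to 12 highest and 12 lowest ratios past 2-fold both with and without the top cell of each library, up to 10 genes past it in at least 3 clusters, and up to 4 members with the largest ratio of each of 27 lists, with genes of ribosomes, mitochondria, haemoglobin, immunoglobulins and sex chromosomes not ranked. Other genes (Lrg1, Wfdc21 and Ifitm1, not called without the top cell, the first and second only for falling under the CPM minimum, Egr1, Igkc, Bcl2, Camp, Ngp, Vcam1, S100a8, Isg15, Rsad2 and the genes named at 1.5-fold among them), the antibody and gene pairs, the 2 motifs, the copy check of Hspa1a and Hspa1b, and the settings without cluster 12 or 16 were chosen after values were seen. The members and lists were chosen with earlier results of these data known. Results on some genes are not reported here. Gene positions are from GENCODE (GRCm38) and promoters from RefSeq (GRCm38.p6).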

Additional observations from a re-analysis of the deposited data

Results flagged for a closer look

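Lrg1 and Lcn2 differed in direction between the naive and the tumor-bearing pair. Lrg1 was 3.38-fold higher in naive spleen than naive blood and at 33.9 CPM in tumor-bearing spleen against 51.1 in tumor-bearing blood. Lcn2 was 2.61-fold higher in naive spleen and at 91.3 against 133.5 CPM in the tumor-bearing pair. With 1 library of each kind, the difference was not tested.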

How the results depend on the processing

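No paired analysis was possible because the labels give no replicate numbers and each group is 1 library. Against 8 higher and 7 lower genes over all cells, the counts were 17 higher with cells thinned to 5000 UMIs, 756 and 324 without a minimum on counts, 2 and 2 at 100 UMIs and 50 CPM, and 73 and 43 at 1.5-fold. They were 5 and 1 in clusters 0, 1, 2, 4 and 6 only, 5 and 4 with an equal mix of those clusters, 5 higher without cluster 12 and 1 lower without cluster 16 (the last pair of settings chosen after seeing the data), and 11 lower when scaled without mitochondrial, ribosomal-protein, haemoglobin and immunoglobulin genes. Thinned cells gave 62 lower in cluster 0, 61 higher and 83 lower in cluster 1, 57 and 71 in cluster 2, 49 higher in cluster 4 and 72 higher in cluster 6. Without the top cell of each gene there were 29 higher and 26 lower in cluster 0, 65 lower in cluster 2 and 52 higher in cluster 4. Scaling without the named gene classes gave 38 lower in cluster 0. Without a minimum the counts were 873 and 391 in cluster 0, 589 and 412 in cluster 1, 1059 and 424 in cluster 2, 960 and 491 in cluster 4, and 975 and 541 in cluster 6. At 100 UMIs and 50 CPM they were 5 and 2, 5 and 5, 8 and 3, 6 and 14, and 6 and 16 in the same order. At 1.5-fold they were 282 and 155, 284 and 222, 488 and 248, 435 and 379, and 568 and 319. Antibodies at least 2-fold lower numbered 2 with median scaling and 2 at 1.5-fold, CD115 being the second.

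Hspa1b kept its call in 13 of 13 alternatives, Idi1 and Tnfaip3 in 12, and Bmf and Cxcl10 in 10, while Ifit3b, Oasl1 and Thbs1 kept it in 6. A call also ended where a gene dropped under the minimum, as for Lrg1 (2.70-fold) and Wfdc21 (2.18-fold) in the 5 clusters alone. The 15 genes kept their direction in these alternatives. Among the 13 alternatives, the 1.5-fold threshold and the setting without a minimum on counts only loosen the rule. Those settings could not end a call, so the counts of kept calls include them by construction. Retnlg (1.68) turned to 0.80 without cluster 12, 0.73 in the 5 clusters alone and 0.74 with their equal mix, and the median log2 ratio of the interferon-gamma list (-0.05) turned to 0.09 without cluster 16, 0.11 in the 5 clusters alone and 0.11 with their equal mix. Within a cluster, 20 CPM is few UMIs in the spleen library, which limits the counts there.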
